A study of Homo sapiens with 10 samples.

Results

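This account concerns 10 genes for plasma membrane amino acid transporters in PC-3 cells, a line derived from human prostate cancer that grows without androgen. The members were SLC7A5, SLC3A2, SLC7A11, SLC43A1, SLC7A1, SLC1A4, SLC1A5, SLC38A1, SLC38A2 and SLC6A9, and they were found by their gene names on the non-control spots of the arrays. All 10 were on the array, with 18 probes between them, among 28090 named genes of which 19718 were bright enough to be tested. The rule used gene names and no measured value, although earlier results of these data were known when the genes were chosen.

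RNA was taken from PC-3 cells before treatment (Ctrl, 0 h) and 24 h after addition of DMSO, the solvent of the drugs, of 60 µM luteolin, of 60 µM gefitinib, or of both drugs at 60 µM each. Luteolin is a plant flavonoid, and gefitinib is an inhibitor of the epidermal growth factor receptor kinase. Each of the 5 groups had 2 arrays, which the labels call biological replicates, and each array measured 1 sample in 1 colour. The study asked how the drugs, alone and together, alter these cells, and all groups share the single cell line as their model.

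The labels and the scanner files did not give the same treatment for the 6 drug-treated arrays. Arrays labelled luteolin carried a file name that reads as gefitinib, arrays labelled gefitinib carried one that reads as both drugs, and arrays labelled luteolin plus gefitinib carried one that reads as luteolin. Groups below follow the labels, so each is called by what it was labelled. Under the file names every drug result below would pass to another treatment, whereas the 0 h and DMSO arrays were named alike in both.

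Of the epithelial markers, 6 of 6 were well above background on all 10 arrays. Among the prostate luminal markers, KLK3 was well above background on all 10 arrays. Of the leukocyte markers 3 of 6 (CD3E, CD14 and CD68) were well above it on all 10 arrays, and PTPRC and LYZ on 0. None of the 6 fibroblast markers was above it on all 10, though COL1A1 and COL3A1 were on 9 and LUM on 8, and DCN was on 0. Of the 4 endothelial markers PECAM1 was above it on 10 arrays, KDR on 9, CDH5 on 1 and VWF on 0. Summed epithelial marker signal, relative to each array's 75th percentile, lay between 121 and 137 with DMSO and between 58.5 and 94.3 on the arrays labelled luteolin plus gefitinib. Summed luminal marker signal lay between 11.9 and 14.3 with DMSO and between 26.1 and 36.2 on the arrays labelled gefitinib. Between the same groups the summed leukocyte markers lay between 0.747 and 0.804 and between 1.42 and 1.45, and the summed fibroblast markers between 0.392 and 0.419 and between 0.187 and 0.217. The part of these shifts in the results was not tested. The 75th percentile itself ran from 539.8 to 1402 intensity units, and the median SD between paired arrays was 0.0907 with DMSO and 0.255 with both drugs on the log2 scale.

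Cells import amino acids through families of solute carriers. SLC7A5 and SLC7A11 are light chains that reach the membrane only when bound to the heavy chain SLC3A2. When amino acids run short or the unfolded protein response is active, the kinases that phosphorylate eIF2α raise translation of the transcription factor ATF4, which induces many genes for amino acid uptake and synthesis. Leucine and arginine that enter the cell are in turn sensed by the machinery that activates mTORC1. SLC7A5, SLC1A5 and SLC7A11 are known to be raised in many cancers.

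Compared with DMSO, all 10 transporters were higher on the arrays labelled luteolin, and for 10 of 10 both luteolin arrays lay above both DMSO arrays, as they did for 41.5% of all genes tested. By the call used throughout (limma, adjusted p below 0.05 and a change of at least 2-fold), 7 of 10 rose and 0 fell, where 7.22% of the 19718 genes tested rose and 6.17% fell. The median log2 change of the members was 1.18, and that of all genes tested was 0.08. The cystine carrier SLC7A11 changed most, followed by SLC6A9 and the heavy chain SLC3A2. All values below are log2 signals relative to the array's own 75th percentile, given for replicate 1 and then replicate 2, and each change is followed by its standard error with 2 arrays per group.

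**Figure D1:**
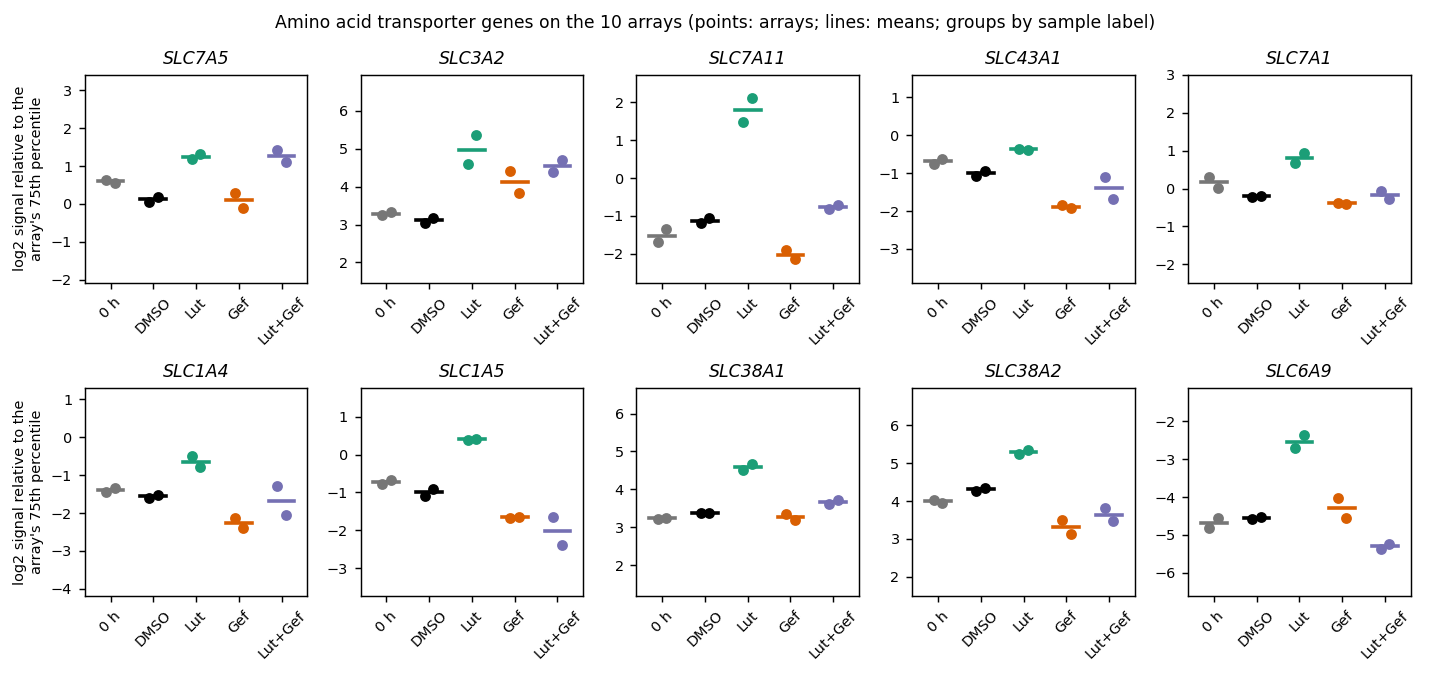
Log2 signal of each transporter gene relative to the array's 75th percentile (y axis, each panel spanning the same range) in the 5 labelled groups (x axis). Points are single arrays and lines the mean of 2. The arrays labelled luteolin (Lut) lie above both DMSO arrays in 10 of 10 panels.

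SLC3A2 encodes the heavy chain, also called 4F2hc or CD98, which anchors SLC7A5 and SLC7A11 at the cell surface. Its probe (hg18 chr11:62412778-62412837) read 3.24 and 3.33 at 0 h, 3.05 and 3.16 with DMSO, 4.59 and 5.37 under the luteolin label, 4.42 and 3.84 under the gefitinib label, and 4.40 and 4.71 under the combination label. All 6 drug-treated arrays were above all 4 others. The rise was 1.87 ± 0.29 for the label luteolin (3.66-fold, adjusted p = 0.00311), 1.02 ± 0.29 for gefitinib (adjusted p = 0.0172) and 1.45 ± 0.29 for both drugs (2.73-fold, adjusted p = 0.00693). It was the one member that passed the call in all 3 drug-treated groups. The gefitinib call was the least firm: it was 0.47 with an adjusted p of 0.167 after quantile normalization, 0.96 after another background correction, and its adjusted p was 0.0801 without DMSO replicate 1, 0.0627 without DMSO replicate 2 and 0.104 without gefitinib replicate 1, where the change was 0.73.

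SLC7A5, known as LAT1, carries leucine and other large neutral amino acids in exchange for glutamine. Its brighter probe (hg18 chr16:86421408-86421467) read 0.63 and 0.56 at 0 h, 0.05 and 0.19 with DMSO, 1.19 and 1.30 for luteolin, 0.29 and -0.10 for gefitinib, and 1.43 and 1.11 for both drugs. Both arrays of the luteolin and combination labels were above the other 6, and the gefitinib pair spanned the DMSO pair. The change was 1.13 ± 0.19 for luteolin (2.19-fold, adjusted p = 0.00448), -0.02 ± 0.19 for gefitinib (adjusted p = 0.934, 95% interval from -0.46 to 0.41) and 1.15 ± 0.19 for both drugs (2.22-fold, adjusted p = 0.00358). Without combination replicate 1 the last change was 0.99, just short of 2-fold.

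SLC7A11, known as xCT, imports cystine in exchange for glutamate and so feeds glutathione synthesis. Its brightest probe (hg18 chr4:139308284-139308343) read -1.68 and -1.35 at 0 h, -1.18 and -1.06 with DMSO, 1.49 and 2.11 for luteolin, -1.91 and -2.14 for gefitinib, and -0.81 and -0.72 for both drugs. The groups separated fully, with the luteolin pair highest and the gefitinib pair lowest. It rose by 2.92 ± 0.23 for luteolin (7.58-fold, adjusted p = 0.000398). For gefitinib the change was -0.90 ± 0.23 (adjusted p = 0.0116), which passed the p threshold but not the 2-fold one, and for both drugs it was 0.36 ± 0.23 (adjusted p = 0.235).

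SLC43A1, known as LAT3, carries large neutral amino acids without a heavy chain. Its probe (hg18 chr11:57008877-57008936) read -0.75 and -0.62 at 0 h, -1.07 and -0.94 with DMSO, -0.36 and -0.38 for luteolin, -1.84 and -1.92 for gefitinib, and -1.11 and -1.68 for both drugs. Luteolin arrays were the highest and gefitinib arrays the lowest, but no change reached 2-fold against DMSO. The changes were 0.63 ± 0.20 (adjusted p = 0.0503), -0.88 ± 0.20 (adjusted p = 0.00749) and -0.39 ± 0.20 (adjusted p = 0.151) for luteolin, gefitinib and both drugs. It was the member with the smallest change for luteolin.

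SLC7A1, or CAT1, is the main carrier of arginine and lysine in most cells. Its brighter probe (hg18 chr13:28982093-28982152) read 0.31 and 0.02 at 0 h, -0.22 and -0.19 with DMSO, 0.68 and 0.93 for luteolin, -0.37 and -0.41 for gefitinib, and -0.07 and -0.28 for both drugs. The luteolin pair stood above the other 8 arrays. It rose by 1.01 ± 0.17 for luteolin (2.01-fold, adjusted p = 0.00482), at the edge of the fold threshold. That value was 0.94 with another background correction, 0.99 after quantile normalization, 0.99 without DMSO replicate 1, 0.89 without luteolin replicate 2 and 0.72 as the median over both probes. The other groups gave -0.18 ± 0.17 (gefitinib, adjusted p = 0.391) and 0.03 ± 0.17 (both, adjusted p = 0.905).

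SLC1A5, known as ASCT2, exchanges glutamine and small neutral amino acids. Its single probe (hg18 chr19:51970739-51970798) read -0.78 and -0.68 at 0 h, -1.10 and -0.90 with DMSO, 0.38 and 0.42 for luteolin, -1.68 and -1.64 for gefitinib, and -1.66 and -2.39 for both drugs. By the adjusted p alone, SLC1A5, SLC7A11, SLC1A4 and SLC38A2 rose for luteolin and fell for gefitinib. SLC6A9 likewise rose for luteolin and fell for both drugs. By the call on each gene's probe of highest mean, only SLC1A5 rose for 1 drug label and fell for another. Its change was 1.40 ± 0.23 for luteolin (2.63-fold, adjusted p = 0.00426) and -1.03 ± 0.23 for both drugs (adjusted p = 0.0110). For gefitinib the change was -0.66 ± 0.23 (adjusted p = 0.0400). The combination call was lost with another background correction (-0.78), without DMSO replicate 2 (-0.92, adjusted p = 0.0760) and without combination replicate 2 (-0.66).

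SLC1A4, or ASCT1, exchanges serine, alanine and threonine. Its brighter probe (hg18 chr2:65101942-65102001) read -1.45 and -1.34 at 0 h, -1.59 and -1.53 with DMSO, -0.49 and -0.79 for luteolin, -2.12 and -2.40 for gefitinib, and -1.29 and -2.05 for both drugs. The combination pair spanned the DMSO pair. The changes were 0.92 ± 0.25 (luteolin, adjusted p = 0.0298), -0.70 ± 0.25 (gefitinib, adjusted p = 0.0447) and -0.11 ± 0.25 (both, adjusted p = 0.745), none of which reached 2-fold.

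SLC38A1 and SLC38A2, known as SNAT1 and SNAT2, take up glutamine, alanine and other small neutral amino acids with sodium. SLC38A1 (hg18 chr12:44868274-44868333) read 3.21 and 3.25 at 0 h, 3.37 and 3.39 with DMSO, 4.52 and 4.68 for luteolin, 3.36 and 3.18 for gefitinib, and 3.60 and 3.73 for both drugs. The luteolin pair lay above the other 8 arrays, with a rise of 1.22 ± 0.15 (2.33-fold, adjusted p = 0.00142), against -0.11 ± 0.15 for gefitinib (adjusted p = 0.567) and 0.29 ± 0.15 for both drugs (adjusted p = 0.158).

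SLC38A2 (hg18 chr12:45038977-45039036) read 4.04 and 3.95 at 0 h, 4.26 and 4.35 with DMSO, 5.25 and 5.35 for luteolin, 3.50 and 3.13 for gefitinib, and 3.82 and 3.46 for both drugs. Luteolin arrays lay above DMSO, and gefitinib and combination arrays lay below it, with no overlap. The changes were 0.99 ± 0.19 (adjusted p = 0.00746), -0.99 ± 0.19 (adjusted p = 0.00371) and -0.67 ± 0.19 (adjusted p = 0.0247) for luteolin, gefitinib and both drugs. The first and the second missed the 2-fold threshold narrowly, and after quantile normalization both passed it, at 1.06 and -1.50.

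SLC6A9, known as GLYT1, takes up glycine with sodium and chloride. Its probe (hg18 chr1:44239086-44239233, a span that is longer than the probe) was dim, and was well above background on 9 of 10 arrays, the exception being 1 of the combination arrays. It read -4.82 and -4.56 at 0 h, -4.59 and -4.54 with DMSO, -2.71 and -2.37 for luteolin, -4.03 and -4.55 for gefitinib, and -5.36 and -5.23 for both drugs. The luteolin pair was highest and the combination pair lowest. It rose by 2.03 ± 0.22 for luteolin (4.07-fold, adjusted p = 0.000912), and the other changes were 0.27 ± 0.22 (gefitinib, adjusted p = 0.309) and -0.73 ± 0.22 (both, adjusted p = 0.0285), the latter -1.13 and past 2-fold after quantile normalization.

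**Figure D2:**
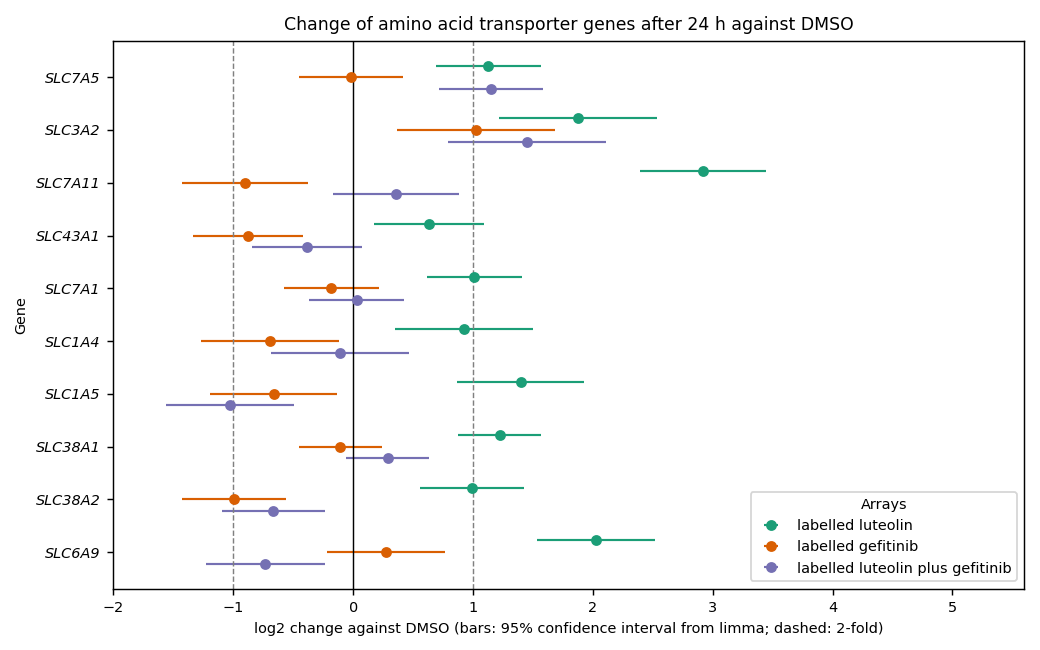
Log2 change of each gene against DMSO (x axis) for the 3 drug labels, with 95% confidence intervals from limma and dashed lines at 2-fold. For luteolin 10 of 10 points lie right of 0. For gefitinib 8 of 10 lie left of it, and for both drugs 5 of 10.

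Against DMSO, arrays labelled gefitinib gave 1 member raised (SLC3A2) and 0 lowered, beside 15.6% raised and 14.3% lowered among all genes tested. The call turned to 0 raised and 1 lowered, SLC38A2, with the normexp background correction, with quantile normalization and without DMSO replicate 1, to 0 and 2 (SLC38A2 and SLC7A11) without gefitinib replicate 1, and to 0 and 0 without DMSO replicate 2. By the adjusted p alone 1 rose and 5 fell, namely SLC7A11, SLC43A1, SLC1A4, SLC1A5 and SLC38A2, beside 32.9% and 22.1% of all genes. The members' median was -0.42 and that of all genes 0.22, or 0.045 after quantile normalization. Arrays labelled luteolin plus gefitinib gave 2 raised (SLC7A5 and SLC3A2) and 1 lowered (SLC1A5), beside 12.1% and 7.69% of all genes. Their median was -0.04, with 0.16 for all genes, or 0.0021 after quantile normalization. These comparisons share the DMSO arrays with the luteolin one. Of all genes called, 52.3% were raised for gefitinib, against 40.2% after quantile normalization and 66.3% with the normexp background correction, and for both drugs these shares were 61.1%, 44.8% and 71.3%.

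The 10 arrays lay on 3 slides, which can be used to compare within a slide. Luteolin minus DMSO could be read on slide 1 and slide 2, and was above 0 for 10 of 10 members on each, from 0.71 to 2.67 and from 0.56 to 3.17. For both drugs, SLC7A5 was 1.38 and 0.92 above DMSO on these slides, SLC3A2 1.35 and 1.55 above it, and SLC1A5 differed by -0.56 and -1.49. Gefitinib and DMSO met on slide 1 alone, where SLC3A2 was higher by 1.37.

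The solvent control was also set against the cells before treatment. Between 0 h and DMSO at 24 h, 0 of 10 members passed the call by limma, where 0.0355% of all genes did, and 1 had an unadjusted p below 0.05: SLC7A5, with -0.48 ± 0.19 (adjusted p = 0.782). No member moved by more than 0.48 in size. SLC7A5 and SLC7A1 read higher at 0 h than with DMSO, and luteolin against 0 h gave 0.65 and 0.64 for them, below 2-fold. With 0 h as the base, 6 of 10 members rose and 0 fell for luteolin, beside 8.26% and 7.85% of all genes. These were SLC3A2, SLC7A11, SLC1A5, SLC38A1, SLC38A2 and SLC6A9. For gefitinib 0 rose and 1 fell (14.5% each among all genes), the faller being SLC43A1 with -1.20 ± 0.20 (adjusted p = 0.00231). For both drugs SLC3A2 rose by 1.27 and SLC1A5 changed by -1.30, beside 11.5% of all genes raised and 8.32% lowered.

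Direct tests between drug labels showed where the members differed. Luteolin arrays were higher than gefitinib arrays for 10 of 10 members by the adjusted p alone (27.2% of all genes), and for 9 of 10 by the call (18.1%). None was lower, where 18.5% of all genes were. The differences ran from 0.85 ± 0.29 for SLC3A2, which missed 2-fold, to 3.83 ± 0.23 for SLC7A11 (14.2-fold, adjusted p = 3.47e-05). SLC1A5 and SLC38A2 differed by 2.06 ± 0.23 and 1.98 ± 0.19.

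When both drugs were set against luteolin alone, 0 of 10 members were raised and 6 were lowered (11.3% and 9.75% of all genes). These were SLC6A9 with -2.76 ± 0.22, SLC7A11 with -2.56 ± 0.23, SLC1A5 with -2.42 ± 0.23, SLC38A2 with -1.66 ± 0.19, SLC1A4 with -1.03 ± 0.25 and SLC43A1 with -1.02 ± 0.20. SLC1A4 and SLC43A1, at the edge of 2-fold, were lost with the normexp background correction (-0.82 and -0.86) and without combination replicate 2 (-0.66 and -0.74), which left 4, and SLC1A4 also without luteolin replicate 1 (-0.88, adjusted p = 0.0758). SLC7A1 (-0.98) and SLC38A1 (-0.93) were lower by the adjusted p alone, as were 18.3% of all genes. The heteromer of SLC7A5 and SLC3A2, which imports leucine, was not among them: SLC7A5 differed by 0.02, with a 95% interval from -0.42 to 0.45, and SLC3A2 by -0.42, with one from -1.08 to 0.23. Against gefitinib alone, the combination arrays were higher for SLC7A11 (1.26 ± 0.23) and SLC7A5 (1.17 ± 0.19) and lower for SLC6A9 (-1.01 ± 0.22, at the edge of 2-fold), beside 17.2% and 9.76% of all genes. With the normexp background correction 2 of these calls were lost, and 14.9% of all genes were called. In both comparisons the SLC6A9 probe was well above background on 1 of the 2 combination arrays.

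A last contrast asked whether the change with both drugs equalled the sum of the changes with each. The change with both drugs was lower than the sum for 9 of 10 members, and by the adjusted p for 6 of 10. Of all genes 16.3% were lowered, 17.9% raised and 34.2% called in either direction. SLC6A9 departed by -3.03 ± 0.31 (adjusted p = 0.000464): the sum was 2.30 and the observed change -0.73. Its probe was well above background on 1 of the 2 combination arrays, and the departure was -3.10 without the other, combination replicate 2, and -1.83 with the normexp background correction. For SLC1A5 the sum was 0.73 and the observed change -1.03, a departure of -1.76 ± 0.33 (adjusted p = 0.00492). For SLC7A11 it was -1.66 ± 0.32 (adjusted p = 0.00607), and for SLC3A2 -1.45 ± 0.41 (adjusted p = 0.0262). SLC38A1 and SLC7A1 departed by -0.83 and -0.80 (adjusted p = 0.0195 and 0.0365), and SLC7A5 by 0.04 (95% interval from -0.57 to 0.66). The count was 3 without DMSO replicate 1, DMSO replicate 2, luteolin replicate 2 or gefitinib replicate 1, with SLC3A2, SLC7A1 and SLC38A1 past the threshold no longer.

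**Figure D3:**
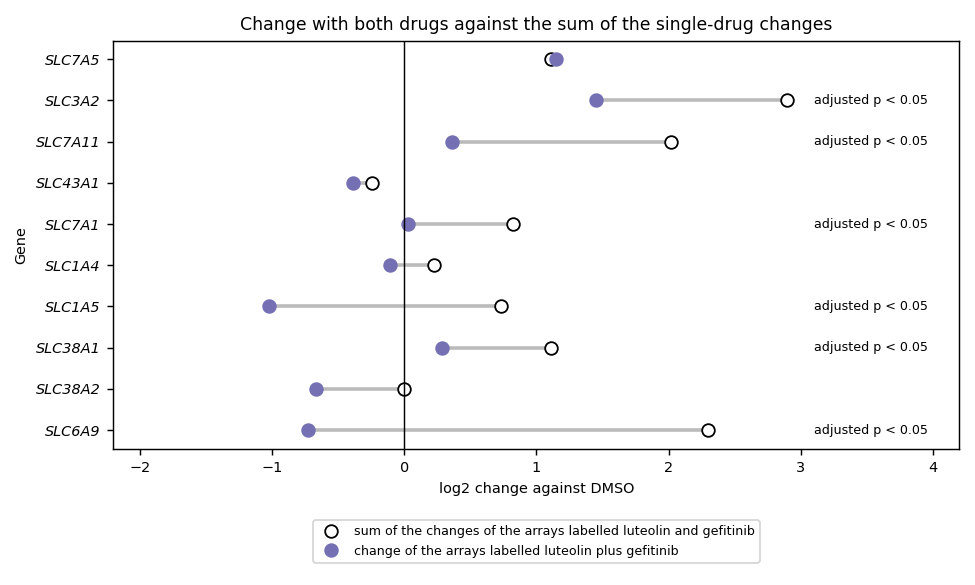
For each gene, the sum of the log2 changes of the luteolin and gefitinib labels (open circles) and the observed change of the combination label (filled), all against DMSO. The filled circle lies left of the open one for 9 of 10 genes, and the pair for SLC7A5 differ by 0.04.

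Several genes had more than 1 probe, which gives another look at the same arrays. The remaining 2 probes of SLC7A11 gave 2.93 and 2.99 for luteolin, and the second probe of SLC3A2 gave 1.89, 1.03 and 1.52 for luteolin, gefitinib and both drugs. For SLC7A5 the second probe gave 1.08, 0.61 and 1.50. Its gefitinib change passed the p threshold (adjusted p = 0.0333), where the brighter probe gave -0.02 (adjusted p = 0.934). The probes of SLC1A4 differed in their calls, since the second passed the call for luteolin (1.53) and for gefitinib (-1.15). The second probe of SLC38A2 passed it for luteolin (1.24) but gave -0.37 for gefitinib (adjusted p = 0.0777). That of SLC38A1 gave -0.67 for gefitinib and passed the p threshold (adjusted p = 0.0112), which the brighter probe did not (adjusted p = 0.567). The gefitinib counts by the adjusted p alone thus depend on the probe read. The second probe of SLC7A1 was well above background on 5 of 10 arrays and gave 0.44, 1.02 and 0.90, with no adjusted p below the threshold.

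Among other genes for amino acid transport, 24 of 43 listed were tested. For luteolin 3 rose and 0 fell (SLC7A2, a cationic carrier, by 2.70; CTNS, the lysosomal cystine exporter, by 2.15; SLC1A1, a glutamate and cysteine carrier, by 1.26), with a median of 0.23, beside 7.22% and 6.17% of all genes. For gefitinib 4 rose and 2 fell (15.6% and 14.3% of all genes): SLC6A20 by 2.51, SLC6A17 by 1.95, SLC7A2 by 1.74 and SLC1A7 by 1.70, against SLC38A9, a lysosomal arginine sensor, with -1.76 and SLC7A6 with -1.43. For both drugs 3 rose, led by SLC6A20 with 3.78, and 5 fell, with SLC7A6 at -1.18 and SLC43A2 at -1.17, beside 12.1% and 7.69% of all genes. For luteolin 3 of 24 of these carriers rose, where 7 of 10 members did. Members and lists were chosen with earlier results of these data known, so this difference is a description only.

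The regulators and targets of the amino acid stress response, 18 of 18 tested, had 12 raised and 0 lowered for luteolin, with a median change of 1.82, beside 7.22% and 6.17% of all genes. ATF4, the factor at the centre of this response, rose by 1.92, and its partner CEBPG by 1.84. Its targets NUPR1, TRIB3 and DDIT3 rose by 3.37, 3.11 and 2.86, and ASNS, which makes asparagine, by 2.20. For gefitinib 3 rose (ATF3 by 3.14, PPP1R15A by 2.33, NUPR1 by 1.33) and 1 fell, NFE2L2, which encodes the regulator NRF2, with -1.33, beside 15.6% and 14.3% of all genes. For both drugs 4 rose (ATF3 by 2.60, ATF4 by 1.48, CEBPB by 1.33, PPP1R15A by 1.26) and 1 fell, EIF2AK4, the kinase that senses uncharged tRNA, with -1.44, beside 12.1% and 7.69% of all genes. Of the genes named for luteolin, CEBPG (0.24), TRIB3 (0.34) and DDIT3 (-0.23) did not pass the call for both drugs. There, ASNS (0.99) and NUPR1 (0.98) passed the adjusted p but not the 2-fold threshold. NFE2L2 and EIF2AK4 were named after their values were seen. Medians were 0.36 and 0.45 for these labels, and the first turned to -0.07 after quantile normalization.

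**Figure D4:**
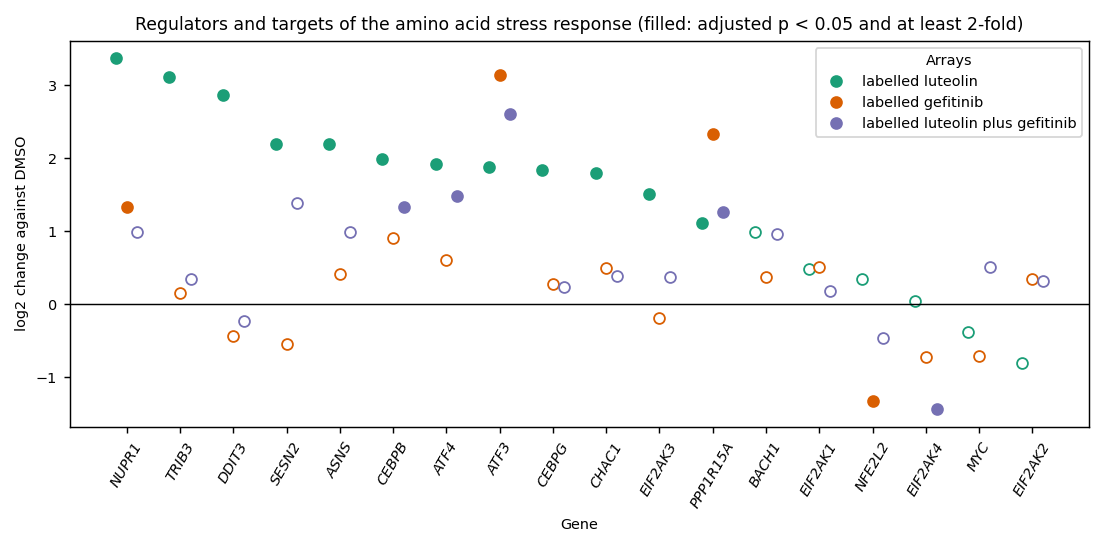
Log2 change against DMSO (y axis) of the 18 listed regulators and targets of the amino acid stress response (x axis, ordered by the luteolin label), with filled points where the adjusted p was below 0.05 and the change at least 2-fold. Filled luteolin points number 12, gefitinib points 4 and combination points 5.

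Of the genes that report amino acid supply to mTORC1, 23 of 28 were tested. For luteolin RRAGC, a Rag GTPase, rose by 1.34 and FNIP1, a partner of folliculin, by 1.09, and 0 fell (7.22% and 6.17% of all genes). For gefitinib 0 rose and 5 fell (15.6% and 14.3% of all genes): the leucine sensor family member SESN1 (-2.57), the GATOR1 subunit DEPDC5 (-1.50), the GATOR2 subunits MIOS (-1.46) and WDR59 (-1.07), and KICS2 (-1.38). For both drugs 5 rose and 2 fell (12.1% and 7.69% of all genes), among them FNIP1 (1.82), RRAGC (1.77), LAMTOR3 (1.30), KICS2 (1.25), SEH1L (-1.52) and ITFG2 (-1.48). KICS2 was therefore called lower for 1 label and higher for another.

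The members varied together to unequal degrees over the 10 arrays, which share the 5 groups, so the correlations are a description only. SLC38A1 and SLC7A11 gave r = 0.98, SLC1A4 and SLC43A1 r = 0.94, and SLC3A2 and SLC43A1 the lowest, r = 0.016. Among 11852 genes above background on all 10 arrays, those most like SLC7A11 were PGPEP1 (r = 0.988), ULK1 (0.985) and JMY (0.984). For SLC38A2 they were CNNM2 (0.985), NRF1 (0.981) and CDON (0.980), and for SLC7A5 HEATR5B (0.955), DNAJB4 (0.952) and NOTCH2NLA (0.950).

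Because members rose together for the luteolin label, RefSeq promoter windows (GRCh38.p14, 250 bases before to 50 after each start) were read for 9 of the 10 members, all but SLC7A11, in 16 windows. Both strands were searched for TGATGNAA, the core of the element bound by ATF4 with a C/EBP partner. It was found in 5 of 16 member windows, and in 3.62% of all 35116 windows. By gene, 5 of 9 members and 4.46% of 27305 genes held it. The following 5 stretches are the matches, each in the direction of its gene with the match in capitals. By the call, 4 of the 5 genes (all but SLC1A4) rose for the luteolin label, beside 7 of 10 members. SLC1A4 passed the adjusted p but not the 2-fold threshold. SLC7A5 and SLC6A9, whose windows held no match, rose by the call as well. Any part of the motif in these changes was not tested.
SLC1A4 (chr2:64989382-64989409, plus strand): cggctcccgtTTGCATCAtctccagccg
SLC3A2 (chr11:62881726-62881748, plus strand): gcaggactccTTACATCAgctcc
SLC38A1 (chr12:46266503-46266530, minus strand): cagacccgaaTGATGAAAagggatcagc
SLC7A1 (chr13:29595664-29595691, minus strand): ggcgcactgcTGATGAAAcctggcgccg
SLC1A5 (chr19:46784894-46784921, minus strand): aggaagtggcTGATGCAAgctgtccagg

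In SLC1A4 and SLC3A2 the match is on the opposite strand, so that the capitals are its reverse complement. Its first base lay 97 bases before the start in SLC1A5, 7 before it in SLC1A4, 4 before it in SLC38A1, and 7 and 37 after it in SLC7A1 and SLC3A2. In SLC1A5 this match and the TGACNNNGC match given below lay in different windows, each with its own start. TGACNNNGC, the core of the antioxidant element, was in 4 of 16 member windows and 13.3% of all windows. CACGTG, the E-box bound by MYC and by TFEB, was in 3 of 16 and 7.26%, and TGACGTCA, the cAMP response element, in 0 of 16 and 1.85%. Some letters of TGACNNNGC can overlap the other motifs. SLC7A5 and SLC3A2, the pair that rose for both drugs, each held TGACNNNGC, beginning 2 and 37 bases before the start, and SLC7A5 also held an E-box 130 bases before it. TGACNNNGC was held as well by SLC7A1 and SLC1A5, whose changes for both drugs were 0.03 and -1.03. SLC43A1 and SLC1A5 held the E-box too, with changes for both drugs of -0.39 and -1.03. The last lines give the E-box of SLC7A5 and the TGACNNNGC match of SLC3A2 with the bases around them. A match is no more than these letters within the window, and binding was not measured.
SLC7A5, E-box in capitals (chr16:87869587-87869682, minus strand): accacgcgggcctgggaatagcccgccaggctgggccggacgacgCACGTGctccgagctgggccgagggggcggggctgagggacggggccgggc
SLC3A2, TGACNNNGC match in capitals (chr11:62881617-62881698, plus strand): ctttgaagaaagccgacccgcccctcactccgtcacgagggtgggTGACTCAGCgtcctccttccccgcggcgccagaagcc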

How the data were processed

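RNA of 10 samples was hybridised to 1-colour Agilent whole human genome arrays, and the deposited files hold the scanner's processed intensity per spot (Agilent Feature Extraction 10.7.3.1, per the file headers), background-subtracted by the authors' software and not scaled between arrays. The deposited series value table held the same values for all 45015 spots of each array. From these, 43376 non-control spots, less those flagged as outliers on an array, were averaged into 41000 probes, scaled to each array's 75th percentile and taken to log2, and 28776 probes were kept that both arrays of some group measured well above background. Changes were fitted with limma 3.58.1 in R 4.3.3 over all 10 arrays and 5 groups (5 residual degrees of freedom), with Benjamini-Hochberg adjustment over all kept probes. A call needed an adjusted p below 0.05 and a 2-fold change (the departure from the sum needed the p alone). A gene was read from its probe of highest mean. The script was tested on simulated data. Probe positions are the hg18 ones in the files, where exons were not analysed here. The number of arrays limits precision. Other backgrounds, scalings, filters, blocks and left-out arrays were tried.

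The members, lists and motifs were chosen with earlier results of these data known. All members are named. From each list, named genes are up to 10 called for at least 1 drug label against DMSO, by size, and for 3 members the 3 genes of highest correlation.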

Additional observations from a re-analysis of the deposited data

Results flagged for a closer look

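For 6 members the change with both drugs differed from the sum of the single-drug changes in limma's test of that difference (adjusted p below 0.05), which marks that the effect of one drug label differed with the other present. The departures on the log2 scale were -3.03 for SLC6A9, -1.76 for SLC1A5, -1.66 for SLC7A11, -1.45 for SLC3A2, -0.83 for SLC38A1 and -0.80 for SLC7A1, beside 34.2% of all genes tested in either direction. The SLC6A9 probe was well above background on 1 of the 2 combination arrays. These departures rest on the labels of the 6 drug-treated arrays, and under the file names the departures would be others.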

How the results depend on the processing

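A value was counted as reversed where its sign turned and it was called in at least 1 of the fits. This happened for 34 values, all of them where groups were taken from the file names. There, members called numbered 3 for luteolin, 7 for gefitinib and 1 for both drugs against DMSO, beside 19.8%, 13.4% and 29.9% of all genes. Against 0 h they numbered 2, 6 and 1, beside 19.8%, 16.1% and 29% of all genes. For both drugs they numbered 3 against luteolin (27% of all genes) and 9 against gefitinib (36.6%). The departure from the sum gave 10, beside 44.3% of all genes. The log2 changes that turned were, for luteolin against DMSO, SLC1A5 -1.03 and SLC6A9 -0.73. For gefitinib against DMSO they were SLC7A5 1.13, SLC7A11 2.92, SLC7A1 1.01, SLC1A5 1.40 and SLC38A1 1.22, and for both drugs SLC7A5 -0.021. Against 0 h they were, for luteolin, SLC1A5 -1.30, SLC38A2 -0.35 and SLC6A9 -0.60, and for gefitinib SLC7A11 3.32, SLC43A1 0.31, SLC1A5 1.12 and SLC38A2 1.30. Luteolin against gefitinib turned for SLC7A11 -2.56, SLC43A1 -1.02, SLC7A1 -0.98, SLC1A4 -1.03, SLC1A5 -2.42, SLC38A1 -0.93, SLC38A2 -1.66 and SLC6A9 -2.76. Both drugs against luteolin turned for SLC7A5 -1.17, SLC1A5 0.36 and SLC6A9 1.01, and against gefitinib for SLC7A5 -1.15, SLC7A11 -3.83, SLC43A1 -1.51, SLC7A1 -1.19, SLC1A4 -1.62, SLC38A1 -1.33 and SLC38A2 -1.98. The departure of SLC7A5 was -2.30.

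With no minimum fold, members called against DMSO numbered 6 for gefitinib and 5 for both drugs, and against 0 h 6 and 5, because the threshold itself was dropped. Of all genes, 55.0%, 41.3%, 54.3% and 40.7% were then called in these comparisons. With normexp background correction, members called against 0 h numbered 0 for gefitinib and 1 for both drugs, beside 18.3% and 13.3% of all genes. For both drugs against gefitinib 1 was called, beside 14.9%. With quantile normalization, 2 for gefitinib and 1 for both drugs were called against 0 h, beside 25.1% and 19% of all genes. The slide block and the median over probes each gave 2 for gefitinib against 0 h, beside 31.3% and 27.9% of all genes. The methods' 1-sample test against 0 h, unadjusted, called 2 for DMSO, 4 for luteolin, 3 for gefitinib and 1 for both drugs. Of all genes it called 12.7%, 21.9%, 23.5% and 12.8%. After adjustment it called 0 for luteolin, 0 for gefitinib and 0 for both drugs, beside 0%, 0.00507% and 0.00507% of all genes. Apart from the dropped threshold, the cause was not tested.

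Leaving out each array in turn, members called ranged against DMSO from 6 to 8 for luteolin, 0 to 2 for gefitinib and 2 to 3 for both drugs. For gefitinib, the 2 called without gefitinib replicate 1 and the 1 called without DMSO replicate 1 were lowered, where the 1 called with all arrays was raised. Against 0 h they ranged from 0 to 0 for DMSO, 5 to 6 for luteolin, 1 to 2 for gefitinib and 0 to 2 for both drugs. They ranged from 8 to 10 for luteolin against gefitinib, 4 to 7 for both drugs against luteolin, 2 to 3 against gefitinib, and 3 to 6 for the departure from the sum. A group left with 1 array was assumed to vary like the others.

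Samples with one replicate number did not all deviate together: their correlations ran from -0.098 to 0.29, with 6 of 10 pairs of groups over 0.1. With the replicate number as a block, members called numbered 7 for luteolin, 1 for gefitinib and 3 for both drugs against DMSO and 6 for the departure, and no count or call of a member changed.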
